A study of Mus musculus with 14 samples.

Results

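Mouse primordial germ cells, the embryonic founders of eggs and sperm, are set apart from the epiblast by a small group of genes, and 8 of these were followed here across 4 poly(A) RNA-seq libraries. The 8 genes are Prdm1, Prdm14, Tfap2c, Dppa3, Dnd1, Kit, Ifitm3 and Alpl. They were taken by symbol from the deposited expression table, where all 8 have a row among 13180 genes. In the embryo, BMP signals from neighbouring tissues act on epiblast cells, which then switch on Prdm1, Prdm14 and Tfap2c. These 3 transcription factors silence the somatic programme, restore pluripotency genes and start the loss of DNA methylation. Embryonic stem cells share part of this programme, since several of the 8 genes are also active in the naive epiblast, so none of them alone marks a germ cell.

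All cells came from 1 mouse embryonic stem cell line with a GFP (green fluorescent protein) reporter for Oct4, the product of Pou5f1, and each population gave 1 library. Oct4-GFP-ESC is that line, grown with serum, LIF at 10 ng/ml and fibroblast feeders treated with mitomycin C, and Oct4-GFP-H-ESC are the brightest reporter cells of that line, taken by sorting. Other cells went through neural differentiation in N2B27 medium and sorted at day 8: GFP-negative cells are NPC(GFP-), and DR-ESC (differentiation-resistant cells) are the GFP-positive ones after further culture in stem cell medium. The labels give no sex, passage number or feeder use for DR-ESC, and no further allele or drug for any population. Another 8 ChIP-seq samples of histone marks and 2 inputs belong to the series and were not analysed here.

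Levels are given in FPKM, fragments per length of transcript and per sequencing depth, so that genes can be compared with each other. Differences are log2 ratios of (FPKM + 1), a scale that understates the change of low genes. A gene is called higher or lower when it differs by 2-fold or more on that scale, if at least 1 of the compared libraries has at least 1 FPKM. With 1 library per population there is no replicate, no test and no error on any value, and read depth is unknown. In such bulk samples fewer cells with a transcript and less of it per cell cannot be told apart. The stem cell and neural labels were read against their defining genes: Pou5f1 reached 1881, 1037 and 609 FPKM in Oct4-GFP-ESC, Oct4-GFP-H-ESC and DR-ESC but 0.276 in NPC(GFP-), and Pax6, a neural progenitor factor, had 52.1 FPKM in NPC(GFP-) and at most 12.7 elsewhere. Pou5f1 was not higher in the cells sorted for a bright Oct4 reporter than in the parental line, with a log2 ratio of -0.86 that came to -0.06 once the abundance trend was removed. Summed FPKM over all genes ranged from 345804 in NPC(GFP-) to 687303 in Oct4-GFP-ESC. The median log2 ratio of all genes was -0.29 for DR-ESC and -0.31 for Oct4-GFP-H-ESC when set against Oct4-GFP-ESC, and it moved to 0.40 and 0.25 with equal sums, so small differences from Oct4-GFP-ESC depend on the scaling.

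In brief, all 8 genes had at least 1 FPKM in the 3 embryonic stem cell libraries, and 3 of them, Kit, Ifitm3 and Alpl, had it in NPC(GFP-). Most genes of the table pass this level in each library. Of all 13180 genes, 11687, 11560 and 11629 had it in Oct4-GFP-ESC, Oct4-GFP-H-ESC and DR-ESC, and 11572 in NPC(GFP-). Kit was as high in NPC(GFP-) as in DR-ESC and was the member with the largest difference between DR-ESC and Oct4-GFP-ESC. Prdm1, Prdm14 and Kit had their highest level in DR-ESC, and the other 5 genes in Oct4-GFP-ESC; with equal sums the ratio of DR-ESC to Oct4-GFP-ESC turned positive for Tfap2c, Dppa3, Dnd1 and Alpl. Oct4-GFP-H-ESC was the lowest of the 3 embryonic stem cell libraries for 6 of the 8 genes, the exceptions being Kit and Ifitm3. For Prdm14 this order turns with equal sums. Most genes of the table were also lower in Oct4-GFP-H-ESC than in Oct4-GFP-ESC, where a ratio of 0.001 lay at percentile 77.4 of all genes. The share of all genes that were lowest in Oct4-GFP-H-ESC was not counted.

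**Figure D1:**
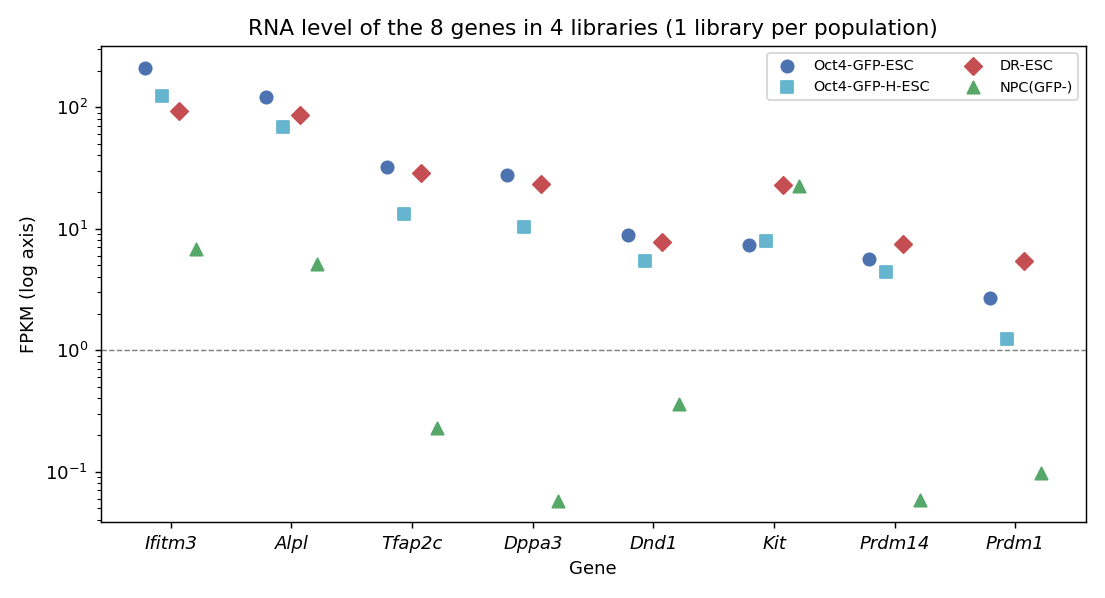
RNA level of the 8 genes (FPKM, log axis) in each of the 4 libraries; each point is 1 library and the dashed line marks 1 FPKM. Kit is the only gene of the 8 whose NPC(GFP-) point (22.5 FPKM) lies beside that of DR-ESC (23.0 FPKM); for the other 7 the NPC(GFP-) point is the lowest.

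RefSeq promoter windows (GRCm38.p6, the RefSeq form of the mm10 build named by the submitters, 250 bases before and 50 after the start site) matched 4 of the 8 genes. All 4 are shown. Kit and Prdm1 were the 2 members with the largest ratios of DR-ESC to Oct4-GFP-ESC, and Ifitm3 and Alpl were the 2 most abundant members, both low but still present in NPC(GFP-). Capitals mark matches to any motif searched.
Prdm1, chr10:44458699-44458998, minus strand: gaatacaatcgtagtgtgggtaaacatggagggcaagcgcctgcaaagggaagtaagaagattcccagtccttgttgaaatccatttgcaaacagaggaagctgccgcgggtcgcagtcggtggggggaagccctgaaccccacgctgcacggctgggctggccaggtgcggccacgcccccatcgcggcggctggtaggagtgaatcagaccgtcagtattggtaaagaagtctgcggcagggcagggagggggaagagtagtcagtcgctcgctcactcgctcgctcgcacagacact
Kit, chr5:75574737-75575036, plus strand: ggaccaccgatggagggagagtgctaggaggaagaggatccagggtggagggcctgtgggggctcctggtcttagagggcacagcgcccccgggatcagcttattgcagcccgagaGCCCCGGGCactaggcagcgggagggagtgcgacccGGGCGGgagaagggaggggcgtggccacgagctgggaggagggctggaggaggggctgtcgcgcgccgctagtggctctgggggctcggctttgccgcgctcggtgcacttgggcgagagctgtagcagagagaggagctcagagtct
Ifitm3, chr7:141010695-141010994, minus strand: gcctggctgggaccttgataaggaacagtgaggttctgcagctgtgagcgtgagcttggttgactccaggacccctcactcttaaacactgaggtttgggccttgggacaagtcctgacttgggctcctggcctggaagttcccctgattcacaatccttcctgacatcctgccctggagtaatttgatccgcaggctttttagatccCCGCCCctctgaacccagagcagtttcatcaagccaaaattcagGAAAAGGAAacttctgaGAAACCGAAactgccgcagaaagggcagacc
Alpl, chr4:137796335-137796634, minus strand: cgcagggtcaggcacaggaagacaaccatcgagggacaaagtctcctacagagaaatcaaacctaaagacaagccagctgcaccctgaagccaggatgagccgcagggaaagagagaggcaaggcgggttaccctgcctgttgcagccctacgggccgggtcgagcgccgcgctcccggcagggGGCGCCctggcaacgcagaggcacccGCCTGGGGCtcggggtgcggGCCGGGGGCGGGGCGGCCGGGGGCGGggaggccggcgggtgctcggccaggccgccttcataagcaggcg

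The windows differed in base composition. Those of Prdm1 and Kit held 20 CpG dinucleotides each and that of Alpl 26, against a median of 7 over 32851 windows, whereas the Ifitm3 window held 5. The listed start of Prdm1 lies inside the span of the gene (10:44437174-44528558). Kit has a second listed start 4 bases downstream, and Alpl a second one inside the gene, whose window held 4 CpG. On both strands, 10 motifs were searched. The letters GCCNNNGGC, bound by TFAP2 factors, occurred in the Kit window and at 3 places in the Alpl window, and in 16.6% of all windows. The GC box GGGCGG occurred in the Kit, Ifitm3 and Alpl windows (35.7% of all). In Alpl it overlapped the GCCNNNGGC matches at bases -20 and -5, but not the one at -40. The interferon response letters GAAANNGAA occurred at 2 places just after the start of Ifitm3, at bases 3 and 20, and in 8.56% of all windows. GGCGCC, of the kind bound by SMAD1 and SMAD5, occurred once in the Alpl window (11.9% of all). No match to the PRDM14 letters GGTCTC, which 16.4% of all windows hold, was found in these 4 windows. The PRDM1 letters GAAAGTG, which can overlap the interferon letters and stand in 4.81% of windows, were likewise not found. The same was true of the octamer ATGCAAAT, held by 1.74% of windows, and of the T-box letters AGGTGT, held by 13.7%. It was also true of the E-box CACGTG, held by 7.15%, and of the TATA box TATAAA, held by 13.6%. The window of the second Alpl start, which is not printed, did hold a TATAAA match, at base -192. A match says only that the letters are there.

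Prdm1 (Blimp1) encodes the zinc finger repressor that silences somatic genes in the first germ cell precursors. It had 2.68 FPKM in the parental Oct4-GFP-ESC, 1.24 in the sorted Oct4-GFP-H-ESC, 5.43 in the resistant DR-ESC and 0.0965 in NPC(GFP-). DR-ESC was highest, at 2.03 times the FPKM of Oct4-GFP-ESC and 4.37 times that of Oct4-GFP-H-ESC. The log2 ratio of DR-ESC was 1.52 to Oct4-GFP-H-ESC, which is a 2-fold call, and 0.81 to Oct4-GFP-ESC, which is not. The latter became 1.23 once the median of expressed genes was set to 0, and 1.49 with equal sums, so that this call depends on the scaling. Prdm1 was the least abundant member in all 3 embryonic stem cell libraries, although its level percentile among all genes was 41.5 in DR-ESC against 26.2 and 15.4 in the other stem cell libraries.

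Prdm1 is also a gene of visceral endoderm, and so endoderm markers were read beside it. Of 11 such markers 10 had a row, and their summed FPKM was 64.5 in the parental Oct4-GFP-ESC, 39.7 in the sorted Oct4-GFP-H-ESC, 31.9 in the resistant DR-ESC and 137 in NPC(GFP-). Both this sum and Prdm1 were lower in the sorted than in the parental cells, while DR-ESC had the lowest sum and the highest Prdm1, and NPC(GFP-) the reverse. The part of endoderm cells in the Prdm1 values was not tested. The genes outside the lists with the nearest pattern to Prdm1 over the 4 libraries, by Euclidean distance of centred log2(FPKM + 1), were Dhrs7 (0.22), Camk2b (0.23) and Trim12c (0.33).

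Prdm14 (chromosome 1, 13113428 to 13127163 in GRCm38.p6) encodes the other PR domain factor of specification, which in mouse germ cells and stem cells represses the de novo DNA methyltransferases and FGF signalling. It had 5.66 FPKM in the parental Oct4-GFP-ESC, 4.38 in the sorted Oct4-GFP-H-ESC, 7.52 in the resistant DR-ESC and 0.0588 in NPC(GFP-). The order of the libraries was that of Prdm1, with a narrower spread of 1.72-fold between the highest and the lowest embryonic stem cell library, against 4.37-fold for Prdm1. Neither of its ratios for DR-ESC reached the 2-fold size, at 0.36 to Oct4-GFP-ESC and 0.66 to Oct4-GFP-H-ESC. With equal sums the first became 1.07. The sorted cells had a ratio of -0.31 to the parental cells, and 0.24 with equal sums, so its direction there depends on scaling. Pced1b had the nearest pattern (distance 0.07), with 33.1, 25.5, 39.8 and 4.17 FPKM in the same order of libraries.

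Tfap2c (chromosome 2, 172545678 to 172558622) encodes the AP-2 gamma factor that acts downstream of Prdm1 in germ cells and is also a gene of trophoblast. Its level was 31.9 FPKM in the parental Oct4-GFP-ESC, 13.3 in the sorted Oct4-GFP-H-ESC, 28.8 in the resistant DR-ESC and 0.228 in NPC(GFP-). Dppa3 (Stella; chromosome 6, 122626424 to 122630271), a maternal and germ cell protein that protects DNA methylation marks in the early embryo, had 27.4, 10.4, 23.2 and 0.0577 FPKM in the same order. These 2 genes had the closest patterns of all 28 pairs of members, at a distance of 0.11, where the next pair, Prdm14 and Dnd1, stood at 0.37. Both were high in Oct4-GFP-ESC and DR-ESC, lower in the sorted Oct4-GFP-H-ESC, and nearly absent from NPC(GFP-). Outside the lists, the same 2 genes were nearest to both, Dmrt1 and then Slc7a3. Dmrt1, a transcription factor of the germ line and gonad, had 40.3, 14.1, 30.8 and 0.12 FPKM.

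DR-ESC exceeded Oct4-GFP-H-ESC in Tfap2c by a log2 ratio of 1.06 and in Dppa3 by 1.09, and both calls held under each scaling tried, with ranges of 1.06 to 1.19 and 1.09 to 1.22. Against Oct4-GFP-ESC the ratios were -0.14 for Tfap2c and -0.23 for Dppa3, and they turned to 0.62 and 0.53 with equal sums, so no direction can be given. Trophoblast markers were read beside Tfap2c. Of 11 such markers 9 had a row, with a summed FPKM of 372 in the parental Oct4-GFP-ESC, 171 in the sorted Oct4-GFP-H-ESC, 60.2 in the resistant DR-ESC and 101 in NPC(GFP-). Krt8 and Krt18 made up most of this sum, with 214 and 134 FPKM in Oct4-GFP-ESC. Both the sum and Tfap2c were lower in the sorted than in the parental cells, whereas DR-ESC had the lowest sum of the 4 libraries with 2.17 times the Tfap2c of the sorted cells. The part of such cells in the Tfap2c values was not tested.

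Dnd1 (chromosome 18, 36763671 to 36766214) encodes an RNA-binding protein that germ cells need to survive. Its row gave 8.85 FPKM in the parental Oct4-GFP-ESC, 5.45 in the sorted Oct4-GFP-H-ESC, 7.80 in the resistant DR-ESC and 0.362 in NPC(GFP-). The 3 embryonic stem cell libraries lay within 1.62-fold of each other, the narrowest spread of the 8 genes, and none of their ratios reached the 2-fold size. Apobec2 had the nearest pattern (distance 0.08).

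Kit (chromosome 5, 75574987 to 75656722) encodes the receptor tyrosine kinase for stem cell factor, on which migrating germ cells, melanocyte precursors and blood progenitors depend. It had 7.39 FPKM in the parental Oct4-GFP-ESC, 7.98 in the sorted Oct4-GFP-H-ESC, 23.0 in the resistant DR-ESC and 22.5 in NPC(GFP-). DR-ESC and NPC(GFP-), the populations that had passed through neural differentiation, had nearly equal levels, and both stood well above the other libraries. DR-ESC had 3.11 times the FPKM of Oct4-GFP-ESC and 2.88 times that of Oct4-GFP-H-ESC, with log2 ratios of 1.51 and 1.42 that ranged from 1.51 to 2.27 and from 1.42 to 1.55 over the scalings. These ratios lay at percentiles 99.1 and 98.7 of all genes compared. The ratio of DR-ESC to NPC(GFP-) was 0.03, and -0.17 with equal sums, so the order of those 2 libraries depends on scaling.

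Kitl, the gene of the Kit ligand, was low everywhere, with 0.336, 0.445, 0.473 and 1.37 FPKM in Oct4-GFP-ESC, Oct4-GFP-H-ESC, DR-ESC and NPC(GFP-). Neural progenitor markers were read beside Kit, and their part in its values was not tested. Of 12 markers 11 had a row, with a summed FPKM of 67.7, 32.3, 80.7 and 885 in the same order. Fabp7, a radial glia gene, had 5.41 FPKM in DR-ESC but 168 in NPC(GFP-), and Dcx, a gene of young neurons, had 0.43 and 34.6, whereas Kit was equal in both libraries. Of 7 markers compared with the parental cells, DR-ESC had 5 higher, as Kit was, and 1 lower. Of all genes 2.95% were higher and 12.2% lower. The higher ones included Pax6, with 12.7 FPKM against 2.34, and Irx3, with 17.7 against 1.82. Tubb3 was the lower one, with 18.6 FPKM in DR-ESC but 47.3 in the parental cells, a call lost with equal sums (-0.54). Against the sorted cells 5 of 7 were higher and 0 lower. Of 12 blood markers 7 had a row, summing to 41.6 FPKM in the parental Oct4-GFP-ESC, 67.0 in the sorted Oct4-GFP-H-ESC, 14.6 in the resistant DR-ESC and 6.06 in NPC(GFP-). Laptm5 alone gave 22.7, 46.4, 7.00 and 0.144 of these. DR-ESC had 3 of 6 lower than the parental cells, 2 of 6 lower than the sorted cells, and 0 higher than either. Of the 3, Laptm5 (-0.86) and Runx1 (-0.83) fell under the 2-fold size with equal sums. The third, Lyz2, was listed at 0 in DR-ESC and NPC(GFP-). Stard4, a sterol carrier gene, and St6galnac3 were among the genes nearest to Kit, with distances of 0.24 and 0.21, and Gad2 was the nearest (0.19) at a low level, with 1.97 FPKM in DR-ESC and 1.51 in NPC(GFP-).

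Ifitm3 (Fragilis; chromosome 7, 141009590 to 141010744) encodes an interferon-induced membrane protein that was one of the first markers of germ cell competence. It had 212 FPKM in the parental Oct4-GFP-ESC, 123 in the sorted Oct4-GFP-H-ESC, 93.4 in the resistant DR-ESC and 6.82 in NPC(GFP-). It was the most abundant of the 8 genes in each embryonic stem cell library, and the only one whose lowest embryonic stem cell library was DR-ESC. For DR-ESC the log2 ratio to the parental cells was -1.17, but -0.26 with the abundance trend of all genes removed, so the 2-fold call is lost there, as it is with each other scaling. Alpl (chromosome 4, 137741731 to 137796384) encodes tissue-nonspecific alkaline phosphatase, the enzyme by whose stain both germ cells and stem cell colonies are recognised. Alpl followed with 121, 68.4, 86.2 and 5.15 FPKM. Its ratio of DR-ESC was -0.49 to Oct4-GFP-ESC, which became 0.32 with the trend removed, and 0.33 to Oct4-GFP-H-ESC.

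Fibroblast markers bear on both genes, since feeder cells also express Ifitm genes and the labels name feeders for the Oct4-GFP-ESC line. Of 25 fibroblast markers 23 had a row, and DR-ESC had 20 of these lower and 0 higher compared with the parental cells, with the same counts for the sorted cells. Their summed FPKM was 1262 in the parental Oct4-GFP-ESC, 976 in the sorted Oct4-GFP-H-ESC, 231 in the resistant DR-ESC and 1089 in NPC(GFP-). Sparc alone gave 280, 214, 185 and 1034 of these, and so most of the sum in DR-ESC and NPC(GFP-). S100a4 was listed at 0 in DR-ESC and NPC(GFP-). The part of feeder RNA in the Ifitm3 and Alpl values was not tested. The 3 genes nearest in pattern to Ifitm3 were Rps4y2 (distance 0.11), Apobec3 (0.12) and Epcam (0.18). Epcam, an epithelial surface gene of stem cells, had 102, 68.7, 46.6 and 3.35 FPKM.

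**Figure D2:**
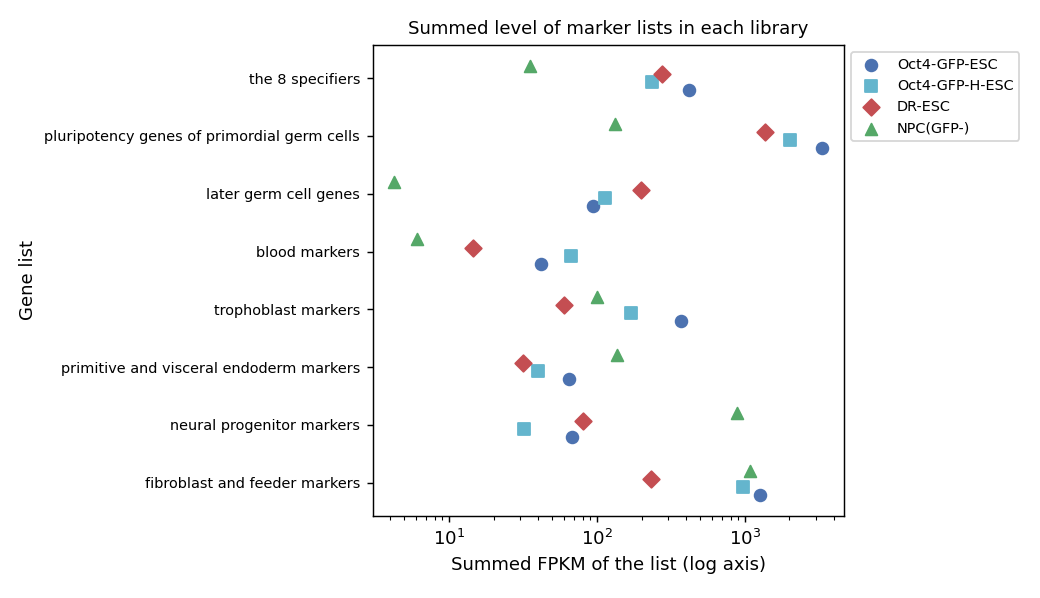
Summed FPKM (log axis) of the 8 specifiers and of 7 marker lists in each of the 4 libraries; each point is the sum over list genes with a row in 1 library. DR-ESC has the lowest fibroblast (231) and trophoblast (60.2) sums and the highest sum of later germ cell genes (198). Sparc alone gives 185 of the fibroblast sum in DR-ESC and 1034 of that in NPC(GFP-).

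Set against the parental Oct4-GFP-ESC, DR-ESC show how cells that kept the reporter through differentiation compare with their line of origin. Of the 8 genes 1 was higher, Kit, and 1 lower, Ifitm3, where 2.95% of 12260 genes were higher and 12.2% lower. The median ratio of the 8 was -0.15, beside -0.29 for all genes, and 0.34 beside 0.00 with the trend removed. Counted without a size, 3 genes lay above 0, namely Kit, Prdm1 and Prdm14, and 5 below. Most genes of the table lay below 0 as well, where a ratio of 0.004 stood at percentile 67.7. These numbers do not set the 8 genes apart as a block.

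The comparison of DR-ESC with the sorted Oct4-GFP-H-ESC sets the resistant cells beside stem cells that were also sorted on the reporter. Here 4 of 8 genes were higher, namely Prdm1, Kit, Dppa3 and Tfap2c, and 0 lower, where 3.65% of 12128 genes were higher and 3.91% lower. The median ratio was 0.86, beside -0.004 for all genes. Ifitm3 was the 1 gene below 0, at -0.39. The same 4 genes were called under every scaling tried; with a pseudocount of 5 only Kit was.

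Oct4-GFP-H-ESC compared with Oct4-GFP-ESC shows what the sort for high reporter signal went with. Tfap2c and Dppa3 were lower, with log2 ratios of -1.20 and -1.32, and 0 of the 8 genes were higher, where 2.67% of 12003 genes were lower and 0.983% higher. Their ratios lay at percentiles 0.87 and 0.44 of all genes. With equal sums they were -0.59 and -0.72, still negative but under the 2-fold size. Kit was the 1 gene above 0, at 0.097, where a ratio of 0.001 lay at percentile 77.4 of all genes. This comparison shares a library with the previous one, so the low values of Oct4-GFP-H-ESC enter both.

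**Figure D3:**
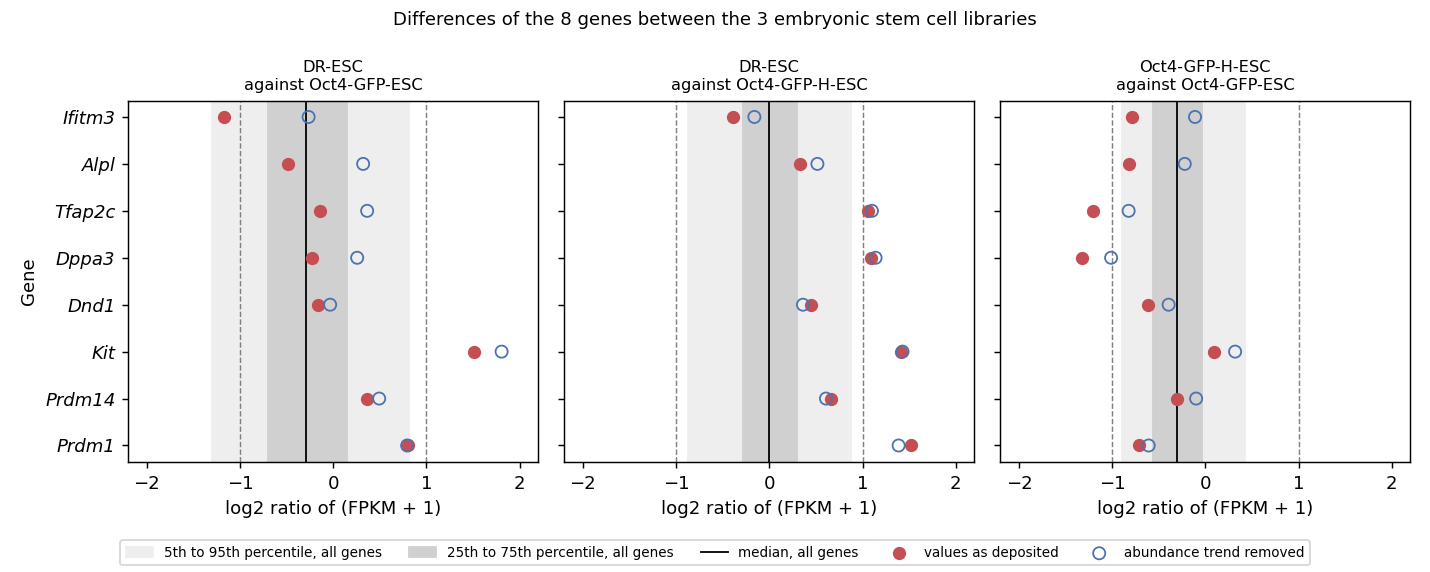
Log2 ratio of (FPKM + 1) for each of the 8 genes in the 3 comparisons among embryonic stem cell libraries, 1 library each; filled points are values as deposited, open circles have the abundance trend removed, grey bands show the spread of all genes and dashed lines the 2-fold size. Kit lies beyond the 95th percentile in both comparisons of DR-ESC, and Tfap2c and Dppa3 lie to the left in Oct4-GFP-H-ESC compared with Oct4-GFP-ESC.

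Against NPC(GFP-), DR-ESC had 7 of the 8 genes higher and 0 lower, where 11.6% of 12649 genes were higher and 14.2% lower. Kit was the exception. The FPKM of Dppa3 was 402 times, of Prdm14 128 times, of Tfap2c 126 times and of Prdm1 56.3 times that of NPC(GFP-), from NPC(GFP-) values under 1 FPKM whose precision is unknown. Ifitm3 and Alpl differed less, by 13.7 and 16.7 times, from levels of 6.82 and 5.15 FPKM. NPC(GFP-) against Oct4-GFP-ESC gave 7 genes lower and 1 higher, where 25.6% of 12848 genes were lower and 15.7% higher, and against Oct4-GFP-H-ESC the counts were the same, where 16.2% of 12864 were lower and 18.5% higher. Kit was the higher gene in both, at 1.48 and 1.39 on the log2 scale. The order of the 8 genes by level was nearly the same in the 3 embryonic stem cell libraries, Ifitm3, Alpl, Tfap2c and Dppa3 leading in each and Prdm14 and Prdm1 last, while in NPC(GFP-) Kit led.

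Relatives of the 8 genes from the same families were read from a list. Of 36 listed relatives 23 had a row. Of 17 compared between DR-ESC and Oct4-GFP-ESC, 0 were higher and 0 lower by the 2-fold size (median -0.23). With equal sums 2 were higher, Prdm11 and Rbm46, where the share of all genes was not counted. Most of the PR domain relatives listed were either level across the libraries, as Prdm4 with 13.5, 12.4, 11.7 and 15.3 FPKM, or highest in NPC(GFP-), as Prdm13 with 0.0305, 0.0861, 0.148 and 7.76 FPKM, Prdm8 with 9.21 FPKM there and Prdm12 with 3.76. Tfap2a and Tfap2b, which act in neural crest and epidermis, were under 1 FPKM in the embryonic stem cell libraries and had 2.59 and 3.39 FPKM in NPC(GFP-), the reverse of Tfap2c. Ifitm1, of the same family as Ifitm3, had 142, 34.4, 71.8 and 0.643 FPKM in Oct4-GFP-ESC, Oct4-GFP-H-ESC, DR-ESC and NPC(GFP-), the same order of libraries as Tfap2c.

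Dppa5a, a stem cell RNA-binding protein, had 734, 423, 624 and 0.246 FPKM. As for Dppa3, Oct4-GFP-H-ESC was its lowest embryonic stem cell library. Its log2 ratio of sorted to parental cells was -0.79, but -0.02 with the trend removed and -0.14 with equal sums. Dppa3 kept -1.01 and -0.72 under these. Dppa2 was not lowest in Oct4-GFP-H-ESC among these libraries, with 68.8, 89.7, 46.3 and 0.081 FPKM, nor was its partner gene Dppa4, with 108, 87.4, 55.3 and 0.18. The Ifitm genes next to Ifitm3 on chromosome 7 differed from it in DR-ESC. Ifitm1 had 142, 34.4, 71.8 and 0.643 FPKM, a log2 ratio of DR-ESC to Oct4-GFP-H-ESC of 1.04, and Ifitm2 had 349, 163, 257 and 53.7. These genes are close in sequence, so that reads may be split between them.

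**Figure D4:**
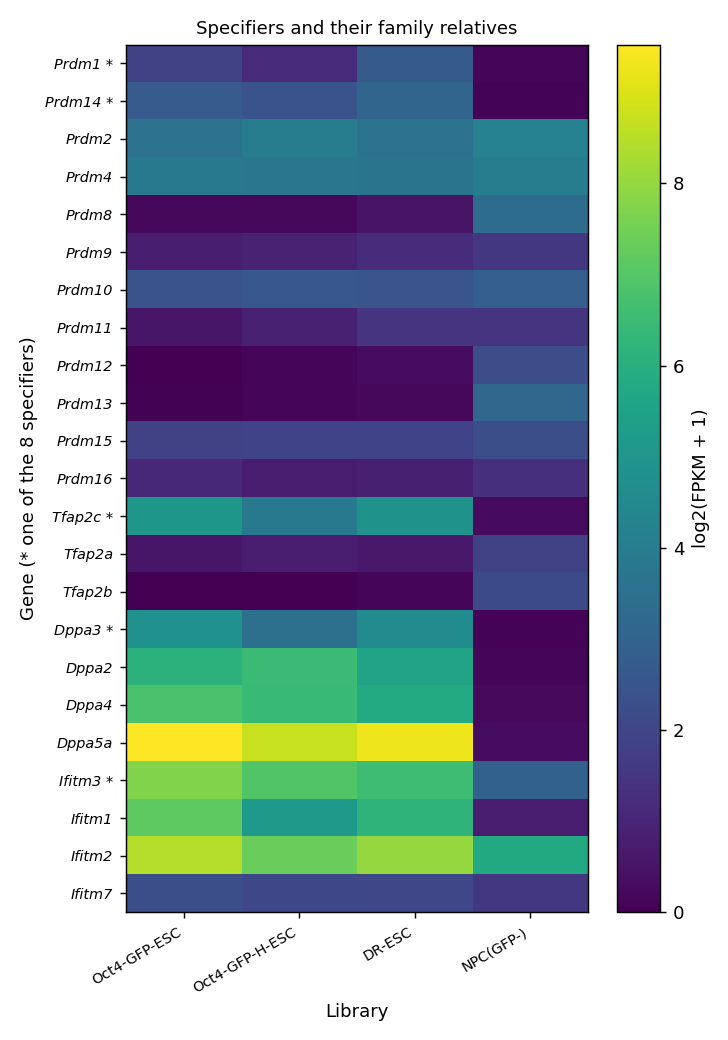
Level as log2(FPKM + 1) of Prdm1, Prdm14, Tfap2c, Dppa3 and Ifitm3 (asterisks) and of relatives with a row, by library; colour runs from 0 (dark) upwards. Prdm8, Prdm12, Prdm13, Tfap2a and Tfap2b are highest in NPC(GFP-), where each starred gene has its lowest value.

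Genes around the specifiers were read from lists. Among 25 inductive signal genes 21 had a row. Of 18 compared with Oct4-GFP-ESC, DR-ESC had 2 higher and 6 lower (median 0.19), and of 19 compared with the sorted cells it had 2 higher and 6 lower (median 0.29). With equal sums the first count became 7 higher and 4 lower (median 0.84). The 4 were Bmp4, Id1, Id3 and T, which were called under each scaling. As deposited, 2.95% of all genes were higher and 12.2% lower against the parental cells, and 3.65% and 3.91% against the sorted cells. That share was not counted with equal sums, where the median of all genes against the parental cells rose from -0.29 to 0.40. Bmp4, the inducer of germ cells, had 9.97, 10.4, 1.41 and 0.589 FPKM in Oct4-GFP-ESC, Oct4-GFP-H-ESC, DR-ESC and NPC(GFP-). Id1, a direct BMP target, had 31.0, 36.5, 3.43 and 16.2 FPKM, and Id3 had 53.0, 42.6, 10.9 and 49.8. DR-ESC was thus lowest for both Id genes. Among the receptors, Acvr2b had 26.3 FPKM in DR-ESC, 11.5 in the parental and 11.9 in the sorted cells, and Bmpr1b was under 1 FPKM in all 3. T, which activates Prdm1 in the mouse epiblast, had 16.1 FPKM in Oct4-GFP-ESC and 0.914, 1.01 and 0.261 in the other libraries. Otx2, a factor that holds epiblast cells back from the germ line, had 14.7, 6.34, 22.5 and 0.0231 FPKM, and so was highest in DR-ESC together with Prdm1. Most feeder markers were, like Bmp4, Id1 and Id3, lower in DR-ESC than in the parental cells. In NPC(GFP-) 18 of 23 feeder markers were lower than in the parental cells and 1 higher. There Bmp4 had 0.589 against 9.97 FPKM, Id1 had 16.2 against 31.0 and Id3 had 49.8 against 53.0. The part of feeder RNA in these values was not tested.

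Of 18 somatic and DNA methylation genes that are repressed at specification 14 had a row. Compared with the parental cells, DR-ESC had 3 of 13 higher and 4 lower (median -0.06), or 6 and 3 with equal sums (median 0.61). Compared with the sorted cells they had 5 of 13 higher and 3 lower (median 0.23). As deposited, 2.95% of all genes were higher and 12.2% lower against the parental cells, and 3.65% and 3.91% against the sorted cells. That share was not counted with equal sums. The higher genes against both were Hoxb1, with 4.11 FPKM in DR-ESC, 0.752 in the parental and 0.528 in the sorted cells, Fgfr2, with 7.24 against 2.32 and 1.96, and Fgf5. The lower genes against both were Dnmt3l, with 54.6 against 220 and 277, Myc and Cdx1. Dnmt3a and Dnmt3b, on which Prdm14 acts, stayed under the 2-fold size, except Dnmt3a against the parental cells with equal sums, Dnmt3a with 32.5, 27.6 and 39.1 FPKM and Dnmt3b with 67.4, 51.0 and 60.1 in the parental, sorted and resistant cells.

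Of 24 partners and cofactors 22 had a row, and DR-ESC compared with the parental cells had 0 of 20 higher and 2 lower (median -0.32), Ehmt2 and the Polycomb gene Eed, and both calls were lost under each other scaling. Against Oct4-GFP-H-ESC 0 of 20 differed by the 2-fold size. Prmt5, the arginine methyltransferase that works with Prdm1 in germ cells, had 124, 92.8, 68.9 and 51.6 FPKM, and Cbfa2t2, the co-repressor bound by Prdm14, had 14.4, 13.4, 11.3 and 13.9, so these proteins' genes stayed on in NPC(GFP-) where Prdm1 and Prdm14 were near 0. Of 12 pluripotency genes that germ cells share, DR-ESC had 0 higher and 5 lower compared with the parental cells (median -0.77), and 0 higher and 1 lower, Klf4, compared with the sorted cells (median -0.30). With equal sums, only Klf4 was lower than in the parental cells and the median was -0.003. Of 16 later germ cell genes 14 had a row, of which 5 were higher and 0 lower against each of the other stem cell libraries (medians 0.76 and 0.22). With equal sums the counts were 12 and 6 higher. As deposited, 2.95% and 3.65% of all genes were higher and 12.2% and 3.91% lower in these 2 comparisons. That share was not counted with equal sums, where the median of all genes rose from -0.29 to 0.40 and from -0.004 to 0.11. Stra8, Sohlh2 and Dazl were among the 5 in both comparisons. These lists were chosen with earlier results known and carry no test.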

How the data were processed

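The authors deposited 1 table of log2 values per gene for 4 RNA libraries, whose name describes them as normalised FPKM. Of the non-zero values, 99.7% gave a number of at most 6 significant digits (relative tolerance 1e-09) as 2 to the power of the value minus 1, against 86.7% without the subtraction, so log2(FPKM + 1) was used. The submitters' processing notes name build mm10 and, with no role, TopHat2 2.0.9, Bowtie 0.12.8, HTSeq, DESeq2 and CASAVA 1.8. Not given in the sources used here are the program behind the FPKM values, the strand setting and any scaling of one library to another. Read depth is unknown, so no interval is given.

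Of 13199 rows, 19 with symbols turned into dates were left out. All rows exceed 1 FPKM in at least 1 library. Columns were matched to samples by title. For 6 comparisons log2((FPKM + 1) ratio) was computed for the whole table, and the share of genes past the 2-fold size is printed as background. That share is of the values as deposited and was not counted for the other scalings. The abundance trend is the running median of the ratio along genes sorted by mean level, in windows of 401. The median ratio set to 0 is that of genes from 5 FPKM upwards in each library of the pair. The members and the 11 gene lists were chosen with earlier results of these data known. Named genes are the 8 members, members' nearest patterns (3 each, predicted and small RNA genes and merged rows left out), and list genes past the 2-fold size or tied to a member; some genes that this rule names are not reported here. Python 3.11.15, numpy 2.4.6, pandas 2.3.3 and matplotlib 3.10.9 were used. The calling code was run on simulated data, with 4-fold changes added to well-expressed genes only. That run does not check calls near the 2-fold size or on low genes. RefSeq windows were read for GRCm38.p6, and all 8 symbols matched its gene table.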

Additional observations from a re-analysis of the deposited data

How the results depend on the processing

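The 6 comparisons were repeated with 9 alternatives each. Over single genes and alternatives, 390 of 428 ratios kept their call, 38 lost or gained it, and no called ratio changed sign. The 38 include ratios that pass the 2-fold size but not the 4-fold size, which was 1 of the alternatives. For DR-ESC against Oct4-GFP-ESC, 2 genes were higher with the median ratio set to 0 and with upper-quartile scaling (Kit and Prdm1), and 3 with equal sums (also Prdm14), against 1 as deposited; 0 were lower with each of these and with the trend removed, against 1. For DR-ESC against Oct4-GFP-H-ESC, 1 was higher with a pseudocount of 5, against 4. For Oct4-GFP-H-ESC compared with Oct4-GFP-ESC, 0 were lower with the equal sums, upper-quartile scaling and the median set to 0, and 1 with the trend removed, against 2. For NPC(GFP-) against Oct4-GFP-H-ESC, 4 were lower with a pseudocount of 5, against 7. A larger pseudocount shrinks ratios of low genes by construction; the cause of the other shifts was not tested. At a 4-fold size 0 genes were higher or lower in the 3 comparisons among embryonic stem cell libraries, and 0 were higher in NPC(GFP-) against either stem cell line. The ratio of Prdm1 in NPC(GFP-) to Oct4-GFP-H-ESC went from -1.03 to -0.07 with the trend removed, where genes this low pass the minimum only if 1 library is near 0. No paired analysis was possible because each population has 1 library. Unknown depth limits the values under 1 FPKM.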
